A study of Mus musculus with 8 samples.

Results

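The genes described here are 9 core members of the Sonic hedgehog pathway, chosen by symbol: the ligand gene Shh, the receptor gene Ptch1, the decoy receptor gene Hhip, the co-receptor genes Gas1 and Boc, the signal transducer gene Smo, and the transcription factor genes Gli1, Gli2 and Gli3. All 9 were found among the 24538 gene rows of the count files. All 9 also passed a filter on low counts that left 15151 genes for testing. RNA had been sequenced from Merkel cells and from epidermal cells that carry the label IFE, which is not spelled out. Merkel cells are the touch-sensitive cells of the epidermis.

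All mice carried Atoh1-GFP, a fusion of the Merkel cell transcription factor Atoh1 with green fluorescent protein, and all were taken at postnatal day 0. The 4 groups were paw Merkel, paw IFE, back Merkel and back IFE, with 2 libraries in each. The tissue was digested with collagenase and then trypsin. The Merkel gate took GFP+ EpCAM+ Sca1- cells and the IFE gate GFP- EpCAM+ Sca1+ cells, so Atoh1, Epcam and Ly6a (the gene for Sca1) describe the sort. RNA from the sorted cells was amplified before libraries were made. Whether both libraries of a group stem from different mice is not stated, so a p-value here reflects the spread between these samples, which may be technical. In such bulk samples, fewer cells of a type and less RNA per cell cannot be told apart.

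Sonic hedgehog is a secreted protein. In its absence the receptor Ptch1 keeps the membrane protein Smo inactive, and Gli3 and part of Gli2 are cut into repressors of transcription. When hedgehog binds Ptch1, helped by the co-receptors Gas1, Boc and Cdon, Smo gathers in the primary cilium and Gli2 and Gli3 become activators. Gli1, Ptch1 and Hhip are themselves classic target genes, so their RNA is often read as a sign of pathway activity. In skin, the ligand is made by the growing hair follicle. In hairy skin such as that of the back, Merkel cells form beside the follicle and need hedgehog signalling to do so, whereas paw skin holds Merkel cells in epidermal ridges that have no follicles.

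Gas1, Smo and Gli3 were lower in back Merkel than in back IFE libraries in every fit, so the bases just before their starts are shown. Promoter windows from RefSeq on GRCm38.p6 were found for 6 of the 9 genes (Ptch1, Hhip, Gas1, Smo, Gli2 and Gli3). Each run below is the 250 bases before the RefSeq start of transcription, written 5′ to 3′ in the direction of the gene. The GENCODE vM21 annotation starts Gli3 further upstream, at chr13:15463235, so the Gli3 window lies within the gene as annotated there. The same holds for the Ptch1 window (chr13:63565736-63565985), as Ptch1 starts there at chr13:63573598 on the minus strand. Gas1 starts there further downstream, at chr13:60177365, so the Gas1 window does not reach that start. Capitals mark the letters CCACCC or, on the other strand, GGGTGG, the core of the sequence that Gli proteins bind, and an E-box, CANNTG, the kind of site that Atoh1 and related factors bind.
Gli3, plus strand, chr13:15463473-15463722: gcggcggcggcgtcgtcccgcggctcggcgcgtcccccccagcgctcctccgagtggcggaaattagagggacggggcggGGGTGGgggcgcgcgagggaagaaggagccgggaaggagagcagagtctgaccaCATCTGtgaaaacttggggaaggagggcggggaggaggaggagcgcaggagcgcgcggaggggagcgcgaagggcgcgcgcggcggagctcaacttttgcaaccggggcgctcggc
Smo, plus strand, chr6:29735247-29735496: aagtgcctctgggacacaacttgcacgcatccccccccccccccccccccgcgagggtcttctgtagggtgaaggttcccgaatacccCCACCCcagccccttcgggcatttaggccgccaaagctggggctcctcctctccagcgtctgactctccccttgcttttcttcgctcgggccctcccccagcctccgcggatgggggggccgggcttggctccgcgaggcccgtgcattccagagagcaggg
Gas1, minus strand, chr13:60177536-60177785: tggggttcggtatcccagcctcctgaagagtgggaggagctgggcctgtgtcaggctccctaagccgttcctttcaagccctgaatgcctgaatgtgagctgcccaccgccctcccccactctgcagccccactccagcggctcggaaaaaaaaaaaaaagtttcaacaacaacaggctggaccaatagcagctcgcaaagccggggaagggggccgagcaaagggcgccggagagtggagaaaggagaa
The Gli3 window held 1 core and 1 E-box, the Smo window held 1 core, and the Gas1 window held neither. Among the windows of the 6 genes, 4 held the core (Gli2, Gli3, Hhip and Smo), against 28.1% of 32851 mouse promoter windows of the same length. One of the 6 windows, that of Gli3, held an E-box, against 66.2% of all windows. The full Gli consensus, GACCACCCA on either strand, was in 0 of the 6 windows and in 0.225% of all windows. The core is part of that consensus. The windows were rich in G and C, at 72.8% for Gli3, 68.4% for Smo and 58.8% for Gas1, against a median of 52.4% over all windows. A match is only a match of letters.

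The libraries held 11139306 to 26195076 counts each. Merkel markers summed to 2292 to 3379 CPM (counts scaled to library size, with library sizes adjusted for composition) in the 4 Merkel libraries. In the 4 IFE libraries they summed to 8.58 to 17.3 CPM. All 7 markers were higher in Merkel cells at both sites by edgeR at an adjusted p under 0.05. The 7 were Atoh1, on which the sort itself was based, and Sox2, Isl1, Krt8, Krt18, Krt20 and Piezo2. Keratinocyte markers summed to 27682 to 43507 CPM in the IFE libraries, and 5 of 7 were called lower in Merkel cells at each site. The sums were 7647 and 1766 CPM in paw Merkel libraries 1 and 2, and 2719 and 2159 CPM in back Merkel libraries 1 and 2. The library labelled back IFE 2 went against its label. Over 28 Hox genes, which mark position along the body, it correlated at r = 0.753 and 0.883 with paw IFE libraries 1 and 2 and at r = -0.0752 with back IFE library 1 (a description across genes). Hoxc10 stood at 83.9 CPM in it, at 0 CPM in back IFE library 1 and at 62.3 to 82.3 CPM in the paw libraries. The back fold changes of the 9 genes are therefore given with and without that library, and the levels by library.

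**Figure D1:**
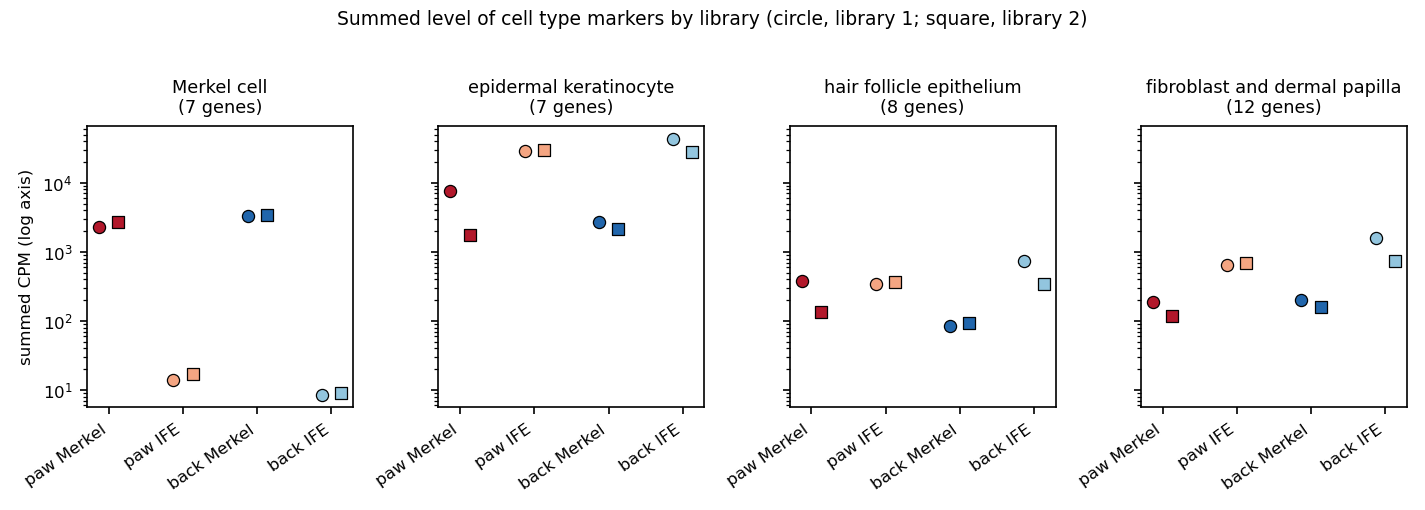
Summed CPM (log axis) of 4 fixed lists of cell type markers in each of the 8 libraries, by group. Merkel markers separate the groups by cell type, and keratinocyte markers in paw Merkel library 1 (7647 CPM) lie above those in the other 3 Merkel libraries.

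Shh, which encodes the ligand, was low throughout and had more RNA in the Merkel libraries than in the IFE libraries of the same site. It stood at 1.82 and 10.97 CPM in paw Merkel libraries 1 and 2, and at 0 and 0.0493 CPM in paw IFE libraries 1 and 2. These are 157 counts against 1 count. The back Merkel libraries held 4.26 and 6.25 CPM and the back IFE libraries 2.06 and 0.878 CPM. The cell types did not overlap at either site.

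The paw difference in Shh just missed the threshold. By edgeR's quasi-likelihood test its log2 fold change was 7.72 ± 2.12 (SE, n = 2 libraries a group; adjusted p = 0.0550). The ratio of summed levels was 222, with a 95% counting interval of 39.2 to 8817 that covers counting error only. The call was made by DESeq2 (log2 fold change 8.16, adjusted p = 0.000822), by edgeR with no filter on low counts (adjusted p = 0.0190) and by edgeR without paw Merkel library 1 (adjusted p = 0.0205). On the back the log2 fold change was 1.84 ± 1.57 (SE; adjusted p = 0.460), and 1.35 without back IFE library 2 (adjusted p = 0.729). Between the Merkel groups of paw and back, Shh levels overlapped. Paw IFE was at 0.0163 of the back IFE level, with a counting interval of 0.000407 to 0.0945, and this was not called (adjusted p = 1). The log2 fold change of paw IFE against back IFE was -5.61, and -6.08 without back IFE library 2. In the annotation (GENCODE vM21, GRCm38) Shh lies at chr5:28456815-28467256 on the minus strand, and 28.4% of its exonic bases also lie in genes on the opposite strand. One of these, 9530036O11Rik, held 2 counts over the 8 libraries, both in back IFE library 2 and 0 in the Merkel libraries, and the other was not analysed here. Whether the counting used strand is not given in the sources used here.

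**Figure D2:**
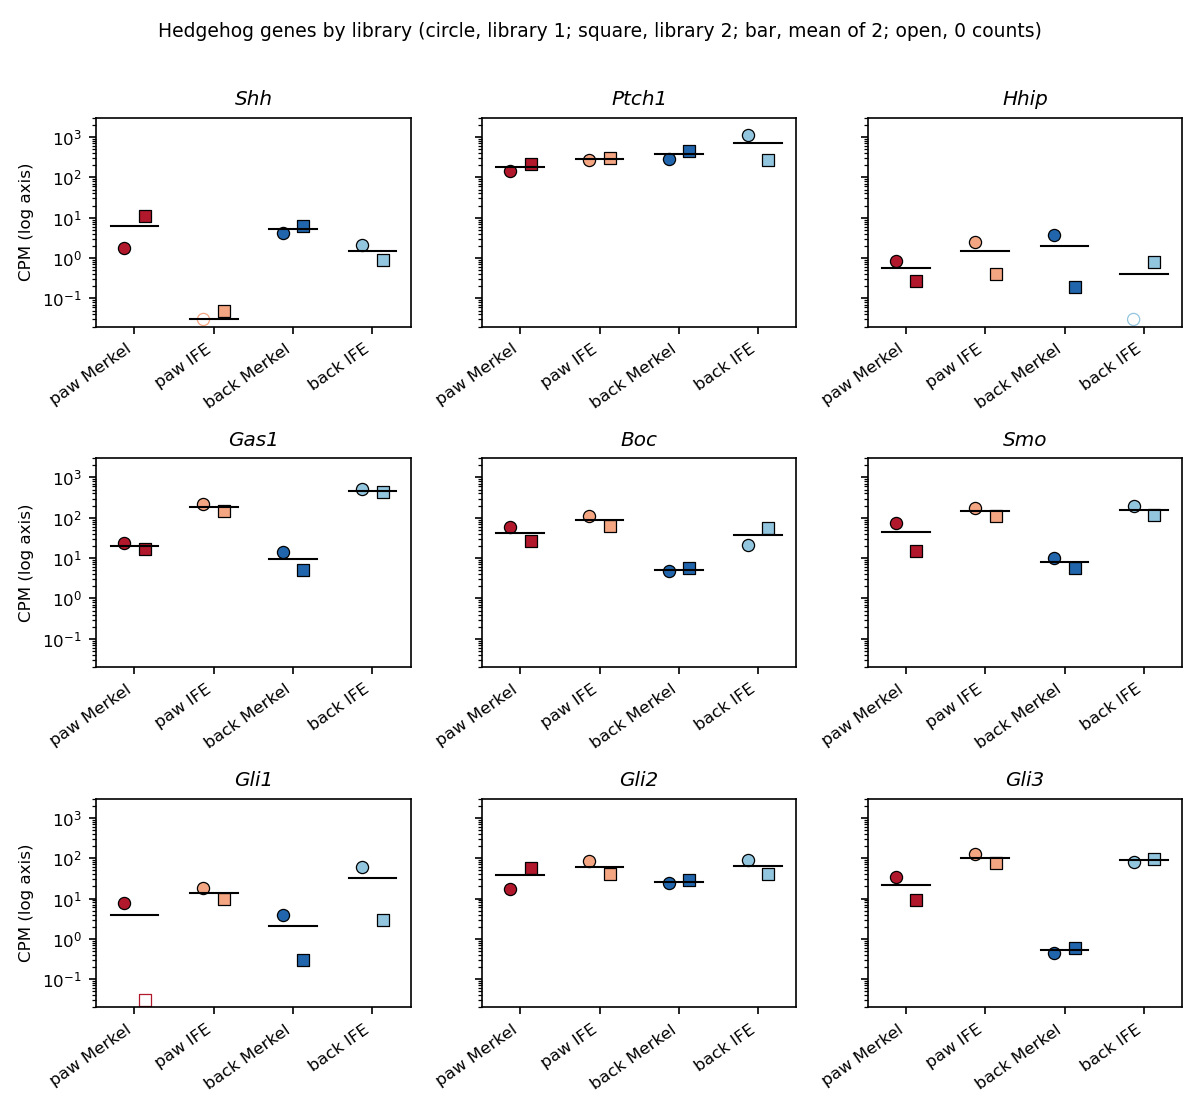
CPM (log axis) of the 9 hedgehog genes in each library (circle, library 1; square, library 2), with a bar at the mean of the 2 libraries and open symbols at the bottom for 0 counts. Gas1, Smo and Gli3 lie lower in back Merkel than in any IFE library, and the 2 libraries of a group lie far apart for Gli1 and Hhip.

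Ptch1, the hedgehog receptor and a target gene, was abundant in every library and no difference passed the test. It stood at 144 and 216 CPM in paw Merkel and at 265 and 296 CPM in paw IFE libraries. In back Merkel libraries it stood at 291 and 458 CPM. In back IFE library 1 it reached 1155 CPM, more than in any other library, while back IFE library 2 held 267 CPM.

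The log2 fold change of Ptch1 was -0.64 ± 0.55 (SE) for paw Merkel against paw IFE (edgeR, adjusted p = 0.558) and -0.92 ± 0.55 for back Merkel against back IFE (adjusted p = 0.281). The back value rested on 1 library: leaving out back IFE library 2 gave -1.62 (adjusted p = 0.0330), and leaving out library 1 gave 0.49 (adjusted p = 0.584). The 95% interval of the paw difference ran from -1.84 to 0.57 on the log2 scale. The back Merkel libraries lay above the paw Merkel libraries without overlap, at a log2 fold change of -1.05 ± 0.55 for paw against back (adjusted p = 0.539).

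Hhip, a membrane protein that binds hedgehog and keeps it from Ptch1, was near the limit of detection. Its counts were 18 and 3 in paw Merkel, 62 and 8 in paw IFE, 49 and 2 in back Merkel, and 0 and 21 in back IFE libraries 1 and 2. The 2 libraries of a group differed by at least 3.12 times in CPM in the groups where both held a count. In CPM all comparisons of groups overlapped, none was called, and no difference was detectable at this depth. In the deposited FPKM, which allow for transcript length, paw IFE (0.242 and 0.0367) lay above back IFE (0 and 0.0305) and paw Merkel (0.00869 and 0.00975). The FPKM per CPM of Hhip ran from 0.0101 in paw Merkel library 1 to 0.117 in back Merkel library 2. Its order of groups thus depends on which deposited value is read. Without back IFE library 2 the back IFE group held 0 counts, and the back difference was not called either (edgeR, adjusted p = 0.276).

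Gas1, a co-receptor anchored in the outer leaflet of the membrane, was lower in Merkel than in IFE libraries at both sites and was the only one of the 9 genes called at both. It stood at 23.7 and 16.96 CPM in paw Merkel and at 223 and 146 CPM in paw IFE libraries. The back Merkel libraries held 14.2 and 5.08 CPM, and those of back IFE held 510 and 437 CPM. No Merkel library reached the lowest IFE library.

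The log2 fold change of Gas1 was -3.18 ± 0.50 (SE) in paw (edgeR, adjusted p = 0.00289) and -5.61 ± 0.56 on the back (adjusted p = 8.10e-05). Without back IFE library 2 the back value was -5.72 (adjusted p = 0.000347). Both calls held when any 1 of the 8 libraries was left out, with adjusted p up to 0.0336 in paw and up to 0.00130 on the back. The difference between the sites in this effect was 2.43 ± 0.66 on the log2 scale and was not called (adjusted p = 0.343), nor was it without back IFE library 2 (2.53, adjusted p = 0.361). An antisense gene shares 19.9% of the exonic bases of Gas1.

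Boc, a co-receptor of the immunoglobulin superfamily, was lower in back Merkel than in the 3 other groups. It stood at 57.5 and 26.7 CPM in paw Merkel, at 114 and 64.1 CPM in paw IFE, at 4.72 and 5.67 CPM in back Merkel and at 20.6 and 54.8 CPM in back IFE libraries. Back Merkel did not overlap any other group. The paw Merkel and back IFE libraries did overlap each other.

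The back difference in Boc, at a log2 fold change of -2.86 ± 0.66 (SE), was called by edgeR (adjusted p = 0.0134), but the call hung on single libraries. Without back IFE library 2 it was -1.99 (adjusted p = 0.1003). Without back Merkel library 1 or 2 its adjusted p was 0.0852 or 0.0818. In paw the log2 fold change was -1.08 ± 0.61 (adjusted p = 0.352). Paw Merkel exceeded back Merkel by 3.02 ± 0.66 on the log2 scale, which edgeR did not call (adjusted p = 0.121) and DESeq2 did (adjusted p = 0.000568).

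Smo, the transducer that Ptch1 holds in check, was also lowest in back Merkel. It stood at 73.4 and 14.8 CPM in paw Merkel, at 179 and 112 CPM in paw IFE, at 10.0 and 5.57 CPM in back Merkel and at 198 and 116 CPM in back IFE libraries. All Merkel libraries lay below all IFE libraries, and the paw Merkel libraries differed from each other by 4.98 times.

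On the back the log2 fold change of Smo was -4.33 ± 0.74 (SE; edgeR, adjusted p = 0.00277), and -4.66 without back IFE library 2 (adjusted p = 0.00470). The call held without any 1 library, with adjusted p up to 0.0469. In paw the log2 fold change was -1.72 ± 0.66 and was not called (adjusted p = 0.161). Without paw Merkel library 1 it was -3.30 (adjusted p = 0.0104). That library held a keratinocyte marker sum of 7647 CPM against 1766 CPM in paw Merkel library 2. Krt1 (2575 and 243 CPM in libraries 1 and 2) and Krt10 (2544 and 142 CPM) made up most of that gap. Itga6 was close (335 and 295 CPM), and Itgb4 was higher in library 2 (45.7 and 75.1 CPM). The part of keratinocytes in the Smo value was not tested. Paw Merkel exceeded back Merkel by 2.50 ± 0.69 on the log2 scale (adjusted p = 0.220), which was called without paw Merkel library 2 (adjusted p = 0.0494), by DESeq2 (adjusted p = 0.0141) and by edgeR with no filter on low counts (adjusted p = 0.000128).

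Gli1, an activator that is itself switched on by the pathway, varied widely between the libraries of a group. It stood at 7.86 and 0 CPM in paw Merkel, at 17.8 and 9.97 CPM in paw IFE, at 3.88 and 0.293 CPM in back Merkel, and at 60.4 and 2.98 CPM in back IFE libraries. Back IFE library 1, which held the highest Ptch1 level, also held the highest Gli1 level. Of the exonic bases of Gli1, 6.55% also lie in genes on the opposite strand. One of these, Arhgap9, held 128 and 241 counts in back IFE libraries 1 and 2, where Gli1 held 1112 and 78. The effect of this overlap on the Gli1 counts was not tested.

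Gli1 was not called by edgeR in paw, at a log2 fold change of -1.80 ± 1.77 (SE; adjusted p = 0.617), or on the back, at -3.91 ± 1.94 (adjusted p = 0.199). Leaving out back IFE library 2 gave -4.84 (adjusted p = 0.151), and leaving out library 1 gave -0.50 (adjusted p = 0.933). DESeq2 called the back difference (adjusted p = 0.0495), as did edgeR with no filter on low counts (adjusted p = 0.00501). Some marker sums of other cells were also higher in back IFE library 1, but not all of the genes in them were. The hair follicle sum was 749 CPM in back IFE library 1 and 344 CPM in library 2, of which Krt17 made up 524 and 130 CPM. Lhx2, Edar and Sox9 were also higher in library 1, and Lef1, Wnt10b, Msx2 and Hoxc13 in library 2. The fibroblast and dermal papilla sum was 1603 and 730 CPM, of which Postn made up 1492 and 249 CPM. The other tested genes of that list (Col1a1, Col1a2, Col3a1, Dcn and Fbn1) were higher in library 2, with Dcn at 60.6 and 181 CPM. Of its 12 genes, Twist1, Twist2, Corin and Sox18 held at most 3 counts in any library. The immune marker sum was 712 CPM in back IFE library 1 and 127 CPM in library 2. The part of these cells in the Ptch1 and Gli1 levels was not tested.

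Gli2, the main activator, passed the test in no comparison. It stood at 17.5 and 57.4 CPM in paw Merkel, at 83.6 and 39.9 CPM in paw IFE, at 23.7 and 28.7 CPM in back Merkel and at 88.9 and 39.7 CPM in back IFE libraries. The paw groups overlapped and the back groups did not. The log2 fold change was -0.72 ± 0.65 (SE) in paw (edgeR, adjusted p = 0.580) with a 95% interval from -2.15 to 0.71. On the back it was -1.29 ± 0.66 (adjusted p = 0.210), with an interval from -2.74 to 0.15, and -1.76 without back IFE library 2 (adjusted p = 0.172). In paw Merkel library 2 the deposited FPKM of Gli2 was 3.64, or 0.0634 per CPM, against 0.187 to 0.250 per CPM in the other 7 libraries, so its level there depends on which deposited value is read.

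Gli3, the main repressor, was all but missing from back Merkel libraries and present in the 3 other groups. It held 6 and 6 counts in back Merkel libraries 1 and 2, or 0.456 and 0.586 CPM. In back IFE it stood at 79.8 and 96.5 CPM, in paw IFE at 131 and 74.8 CPM, and in paw Merkel at 34.9 and 9.40 CPM. The 2 IFE groups overlapped, and each Merkel group lay below them without overlap.

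For back Merkel against back IFE the log2 fold change of Gli3 was -7.39 ± 0.81 (SE), or 168-fold lower, the widest gap of the 9 genes in that comparison (edgeR, adjusted p = 0.000172). It was -7.25 without back IFE library 2 (adjusted p = 0.000736), and leaving out any 1 library moved it only between -7.57 and -7.23. In paw the log2 fold change was -2.21 ± 0.62 and just missed the threshold (adjusted p = 0.0583). Without paw Merkel library 1, where the keratinocyte marker sum was high, it was -3.45 (adjusted p = 0.00736). With all libraries, DESeq2 called the paw difference (adjusted p = 0.00624), as did edgeR with no filter on low counts (adjusted p = 0.00215).

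Gli3 was also higher in paw Merkel than in back Merkel libraries, by 5.41 ± 0.76 (SE) on the log2 scale (edgeR, adjusted p = 0.0336). It was 1 of 28 genes called in that comparison. The direction held in every fit. The call was lost with only the 2 Merkel groups in the fit (adjusted p = 0.0756), without either back Merkel library (adjusted p = 0.197 and 0.245) and without either paw IFE library (adjusted p = 0.0865 and 0.0772). On deposited FPKM with limma the log2 fold change was 1.67 at a pseudocount of 1, 3.92 at a pseudocount of 0.1 and 1.67 unfiltered, with adjusted p of 0.315, 0.183 and 0.432. The fibroblast gene Dcn, whose product decorates collagen, was called in the same comparison (edgeR, adjusted p = 0.0336) and stood at 86.1 and 55.5 CPM in paw Merkel, 5.10 and 3.61 CPM in back Merkel, and 60.6 to 230 CPM in the IFE libraries. It was 1 of 6 tested genes of the fibroblast list to be called there, and 3 of the 12 listed were at 0 in every library. The whole list summed to 187 and 117 CPM in paw Merkel and to 203 and 158 CPM in back Merkel, where Col1a2 and Postn made up most of the sum. The other 4 tested genes had more RNA in paw Merkel, among them Fbn1, at 32.2 and 29.4 CPM against 3.04 and 0.0977 CPM, and Col3a1, at 13.4 and 6.36 CPM against 0.228 and 0.195 CPM. The median log2 fold change of the 6 was 3.53. All 7 keratinocyte markers had higher means in paw Merkel, with a median log2 fold change of 1.00, and 0 were called. Their sum was 7647 and 1766 CPM in paw Merkel libraries 1 and 2, and 2719 and 2159 CPM in back Merkel libraries 1 and 2. In paw Merkel library 2, Krt1 and Krt10 lay below both back Merkel libraries, and the other markers lay above both. The part of other cells in the Gli3 difference was not tested. Between the IFE groups Gli3 differed by 0.22 ± 0.59 on the log2 scale (adjusted p = 1), with a 95% interval from -1.07 to 1.51, and by 0.36 without back IFE library 2 (adjusted p = 0.978). The difference between the sites in the Merkel effect was 5.19 ± 0.94 and was not called by edgeR (adjusted p = 0.165), though DESeq2 called it (adjusted p = 0.000192), as did edgeR without paw Merkel library 2 (adjusted p = 0.0411).

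**Figure D3:**
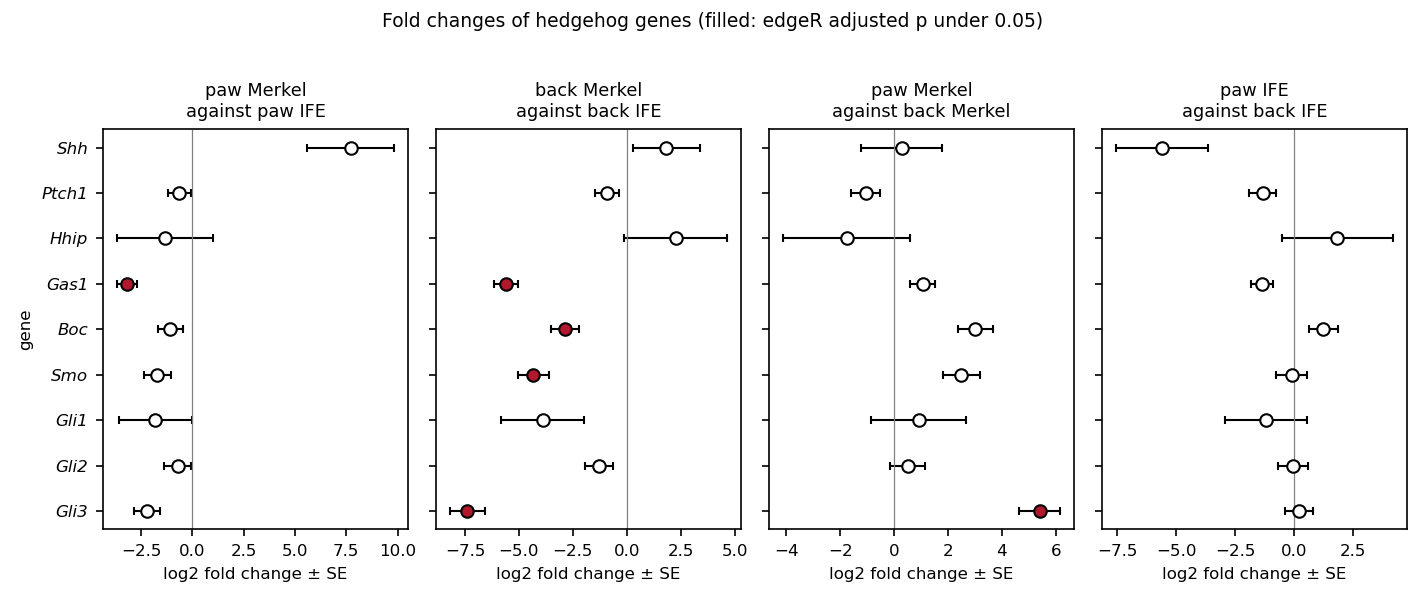
Log2 fold change ± SE of the 9 hedgehog genes in the 4 comparisons of groups, with filled points where edgeR's adjusted p was under 0.05. Gas1 is called in paw, Gas1, Boc, Smo and Gli3 on the back, and Gli3 between the Merkel groups, and the points for Shh against paw IFE rest on 1 count in that group.

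Over the 9 genes, the calls between cell types all went towards less RNA in Merkel cells, and they fell on co-receptors, Smo and Gli3. In paw, 1 of 9 genes was called lower (Gas1) and 0 higher, where 1.93% of all genes tested were called lower and 4.28% higher (6.21% in all). On the back, 4 of 9 were called lower (Gas1, Boc, Smo and Gli3) and 0 higher, where 7.45% of all genes were called lower and 7.99% higher (15.4% in all). Without back IFE library 2 there were 4 called lower, with Ptch1 in the place of Boc, where 4.53% of all genes were called lower and 5.54% higher (1527 genes in all, against 2338). Several marker lists moved the same way. Of the 6 fibroblast markers tested, 4 were called lower in back Merkel and 1, Col1a2, higher, at a median log2 fold change of -4.78. In paw 1 was called lower, at a median of -2.64. Of 7 keratinocyte markers, 5 were called lower at each site, at medians of -2.35 in paw and -3.45 on the back. Of 8 hair follicle markers, 1 was called lower in paw and 3 on the back, at medians of -0.36 and -2.62. Of 6 immune markers, 1 was called lower in paw and 3 on the back. The part of these cells in the calls of the 9 genes was not tested.

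The median log2 fold change of the 9 genes was -1.33 in paw and -2.86 on the back, against -0.04 and -0.06 over all genes tested. The back median was -1.99 without back IFE library 2. In paw, 6 genes were lower in Merkel without overlap of the groups and 1 was higher, where 28.7% and 24.8% of all genes were. On the back these were 5 and 1, where 32.8% and 29.1% of all genes were. The 2 libraries a group make such separation common.

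Between the sites, 1 of 9 genes was called higher in paw Merkel than in back Merkel (Gli3), where 0.178% of all genes were called higher and 0.0066% lower (0.185% in all). The median was 0.92 over the 9 genes and 0.03 over all genes. Without overlap, 4 of the 9 were higher in paw Merkel (Gas1, Boc, Smo and Gli3) and 1 was lower (Ptch1), where 18.2% and 17.2% of all genes were. Between paw IFE and back IFE, 0 of 9 genes and 0% of all genes were called by edgeR. At an unadjusted p under 0.05 there were 3 of the 9 (Shh, Ptch1 and Gas1) and 643 of all genes, and DESeq2 called 0 of the 9 and 84 of all genes. With back IFE library 2 left out, edgeR called 0 of the 9 and 15 of all genes between these groups. For the difference between the sites in the Merkel effect, edgeR called 0 of the 9 genes and 0% of all genes. At an unadjusted p under 0.05 there were 4 of the 9 (Shh, Gas1, Smo and Gli3) and 1365 of all genes, and DESeq2 called 2 of the 9 (Gas1 and Gli3) and 273 of all genes. The comparisons share groups: back Merkel, for example, enters both the back and the Merkel comparison.

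Levels of different genes were compared as deposited FPKM (fragments per kilobase of transcript and per sequencing depth), which allows for length. The leading gene was not the same in the 2 cell types. In back Merkel libraries Ptch1 led at 64.7 ± 20.6 FPKM (mean ± SD, n = 2), which was 74.9% of the summed FPKM of the 9 genes, and Gli2 came next at 6.47 ± 1.03 FPKM. In paw Merkel libraries Ptch1 led at 28.3 ± 10.5 FPKM, before Smo at 17.8 ± 15.0 FPKM, a pair whose ranges overlapped.

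In both IFE groups Gas1 led. It stood at 103 ± 28.9 FPKM in paw IFE and at 238 ± 23.6 FPKM in back IFE libraries, where it made up 53.2% of the sum. In back IFE Ptch1 followed at 97.5 ± 85.9 FPKM (158 and 36.7 FPKM in libraries 1 and 2, against 254 and 221 FPKM for Gas1), and in paw IFE Smo followed at 53.8 ± 11.6 FPKM. Hhip was last in 2 of the 4 groups and Shh was last in paw IFE. In back Merkel Gli3 was last, at 0.0516 ± 0.00685 FPKM.

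The ratio of the repressor gene to the main activator gene was lowest in back Merkel libraries. The ratio of Gli3 to Gli2 FPKM was 0.00983 and 0.00650 for the back Merkel pair and 1.26 and 0.299 for the paw Merkel pair, where 0.299 rests on the Gli2 FPKM of paw Merkel library 2 that was low for its CPM. It was 0.973 and 1.16 in paw IFE and 0.481 and 1.24 in back IFE libraries. The back Merkel ratios lay below all others, and the 3 other groups overlapped.

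**Figure D4:**
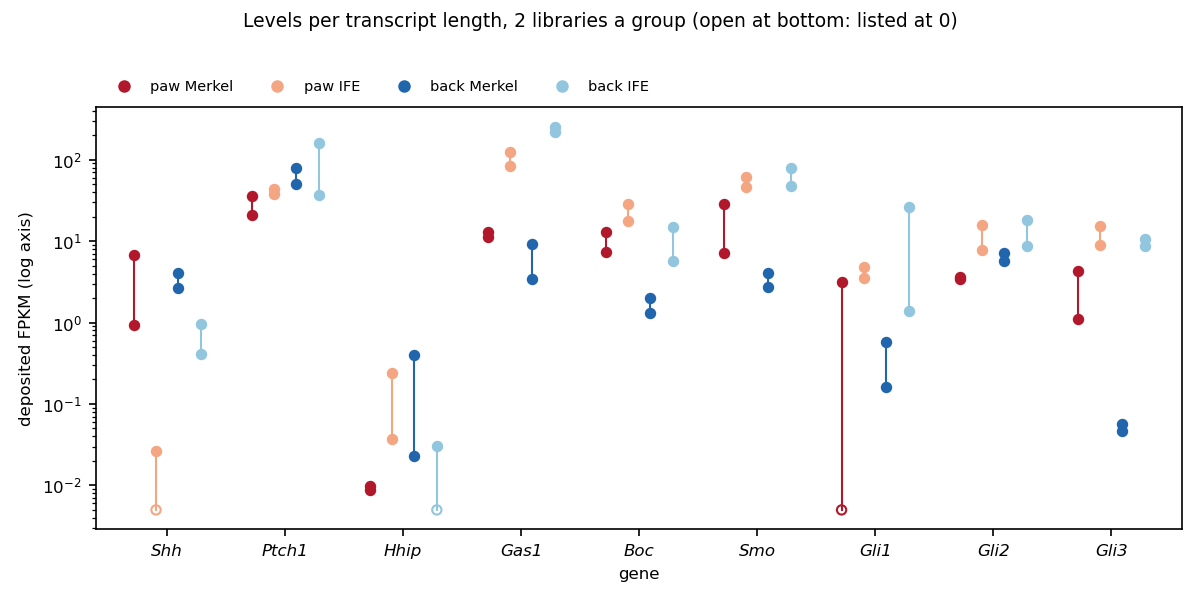
Deposited FPKM (log axis) of the 9 hedgehog genes, with both libraries of each group joined by a line and open points at the bottom for values listed at 0. Ptch1 leads in both Merkel groups and Gas1 in both IFE groups, and Gli3 in back Merkel lies below every other library.

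The genes whose levels were most like each member were found by Pearson correlation of log2 CPM over the 8 libraries, among about 10184 genes of at least 10 CPM in a group. With 8 libraries in 4 groups such values are high for many genes, and they are descriptions only. Gli3 was most like Eme1 (r = 0.994), Fam212b (r = 0.993) and F2r (r = 0.993), and the genes most like Smo included Eif5a (r = 0.988) and Cdca8 (r = 0.988). Gas1 was most like Palm2 (r = 0.985), Exph5 (r = 0.984) and Usp1 (r = 0.983), and Boc was most like Duoxa1 (r = 0.982), Mex3c (r = 0.981) and Pcdh19 (r = 0.977). For Shh these were Synj1 (r = 0.980), Mitf (r = 0.976) and Bnip2 (r = 0.972), all with higher means in Merkel than in IFE groups.

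The likest genes were less close for Ptch1 (Rgmb, r = 0.949; Necap2, r = 0.934; Npbwr1, r = 0.931) and for Gli2 (Nudt5, r = 0.932; Gnptab, r = 0.931; Enoph1, r = 0.923). For Gli1 they were Hnrnpul1 (r = 0.979), Lars2 (r = 0.971) and Mertk (r = 0.970). For Hhip they were BC030336 (r = 0.953), Cmtm4 (r = 0.940) and Diablo (r = 0.929). Among the members, Gli3 and Smo were closest to each other (r = 0.954), followed by Gas1 and Smo (r = 0.918) and by Gli3 and Boc (r = 0.915).

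Other genes of the pathway came from 5 lists with 51 symbols, of which 49 were in the files and 45 were tested. In paw Merkel against paw IFE, 3 were called higher and 4 lower, where 4.28% and 1.93% of all genes were. On the back, 3 were called higher and 6 lower, where 7.99% and 7.45% of all genes were. In the 3 other comparisons edgeR called 0 of them. Their median log2 fold change was 0.04 in paw and -0.20 on the back, close to that of all genes.

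Among genes for making and releasing the ligand, 2 of 9 tested were called at each site, both higher in Merkel cells. The list as a whole did not share that direction. In paw 5 of the 9 were higher and 4 lower in Merkel cells, at a median log2 fold change of 0.26. On the back 3 were higher and 6 lower, at a median of -0.80. Disp1, which was not called, stood at 14.4 and 19.1 CPM in back Merkel and at 50.1 and 55.8 CPM in back IFE libraries. Disp2 is a relative of Disp1, which releases lipid-bearing hedgehog from the cell. It stood at 7.76 and 63.8 CPM in paw Merkel and at 8.37 and 30.6 CPM in back Merkel libraries, with 0 counts in the 4 IFE libraries. Against a floor of 3 counts over both IFE libraries of the site together it was at least 534-fold higher in paw (edgeR, adjusted p = 0.00739) and at least 290-fold higher on the back (adjusted p = 0.00511). Scube1 belongs to a family of secreted proteins that help hedgehog into solution. It stood at 160 and 51.7 CPM in paw Merkel and at 20.2 and 19.1 CPM in back Merkel libraries, against 0 to 1.14 CPM in the IFE libraries. Its log2 fold change was 7.45 ± 1.52 (SE) in paw (adjusted p = 0.0140) and 5.75 ± 1.44 on the back (adjusted p = 0.0203). Leaving out paw IFE library 1 took the paw call away (adjusted p = 0.0798), and so did, on the back, leaving out either back Merkel library or back IFE library 2 (adjusted p = 0.0598 to 0.0664).

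Among the further receptors and surface regulators, 1 of 6 tested was called lower in paw and 2 on the back. Cdon, the third co-receptor, which works alongside Gas1 and Boc, stood at 69.4 and 62.7 CPM in back Merkel and at 314 and 741 CPM in back IFE libraries. Its log2 fold change was -2.996 ± 0.416 (SE; edgeR, adjusted p = 0.000753), and it was -2.25 without back IFE library 2 (adjusted p = 0.00323). In paw it was -1.37 ± 0.39 (adjusted p = 0.0652). All 3 co-receptor genes were thus called lower in back Merkel, with the Boc call resting on single libraries. Gpr161, a ciliary receptor that restrains the pathway, stood at 1.67 and 6.55 CPM in back Merkel and at 62.6 and 76.4 CPM in back IFE libraries, a log2 fold change of -4.09 ± 0.71 (adjusted p = 0.00308). Gpc3, a proteoglycan that competes with Ptch1 for hedgehog, was lower in paw Merkel, at 15.1 and 17.9 CPM against 92.8 and 87.2 CPM in paw IFE (adjusted p = 0.0127). That call was lost without paw Merkel library 2 or either paw IFE library (adjusted p = 0.0528 to 0.0702).

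Of 13 tested genes of the cilium and of Smo transduction, 0 were called in paw and 1 on the back. That gene was Ift172, part of the transport machinery of the cilium, at 79.5 and 111 CPM in back Merkel and 25.3 and 40.5 CPM in back IFE libraries (edgeR, adjusted p = 0.0459). The call was lost when either paw IFE library or any of the 4 back libraries was left out (adjusted p = 0.0735 to 0.252). Of 10 genes that regulate Gli proteins, 0 were called at either site.

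Of 7 further skin targets tested, 3 were called lower and 1 higher in paw Merkel, and 4 were called lower on the back. Those called lower at both sites act in the cell cycle: the cyclin genes Ccnd1 and Ccnd2, which start division, and Foxm1, a transcription factor for mitotic genes. Ccnd2 had a log2 fold change of -2.54 ± 0.34 (SE) in paw (edgeR, adjusted p = 0.000925) and of -3.52 ± 0.35 on the back (adjusted p = 8.33e-05). Ccnd1 stood at -2.68 and -3.13 and Foxm1 at -2.78 and -5.42 on the same scale, with adjusted p of 0.00610 and 0.00139 and of 0.0165 and 0.000356. Snai2, a transcription factor of migrating cells, was lower in back Merkel, at a log2 fold change of -4.24 ± 0.58 (adjusted p = 0.000690). Bcl2, which protects cells from death, was higher in paw Merkel, at 660 and 723 CPM against 173 and 117 CPM in paw IFE (adjusted p = 0.0181). The Bcl2 call was lost without paw Merkel library 2 or either paw IFE library (adjusted p = 0.0691 to 0.158), and the paw call of Foxm1 without paw Merkel library 2 or paw IFE library 1 (adjusted p = 0.0983 and 0.173). These cell cycle genes serve many pathways. Without back IFE library 2, 7 of the 9 back calls among the further pathway genes held, and those of Scube1 and Ift172 did not.

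**Figure D5:**
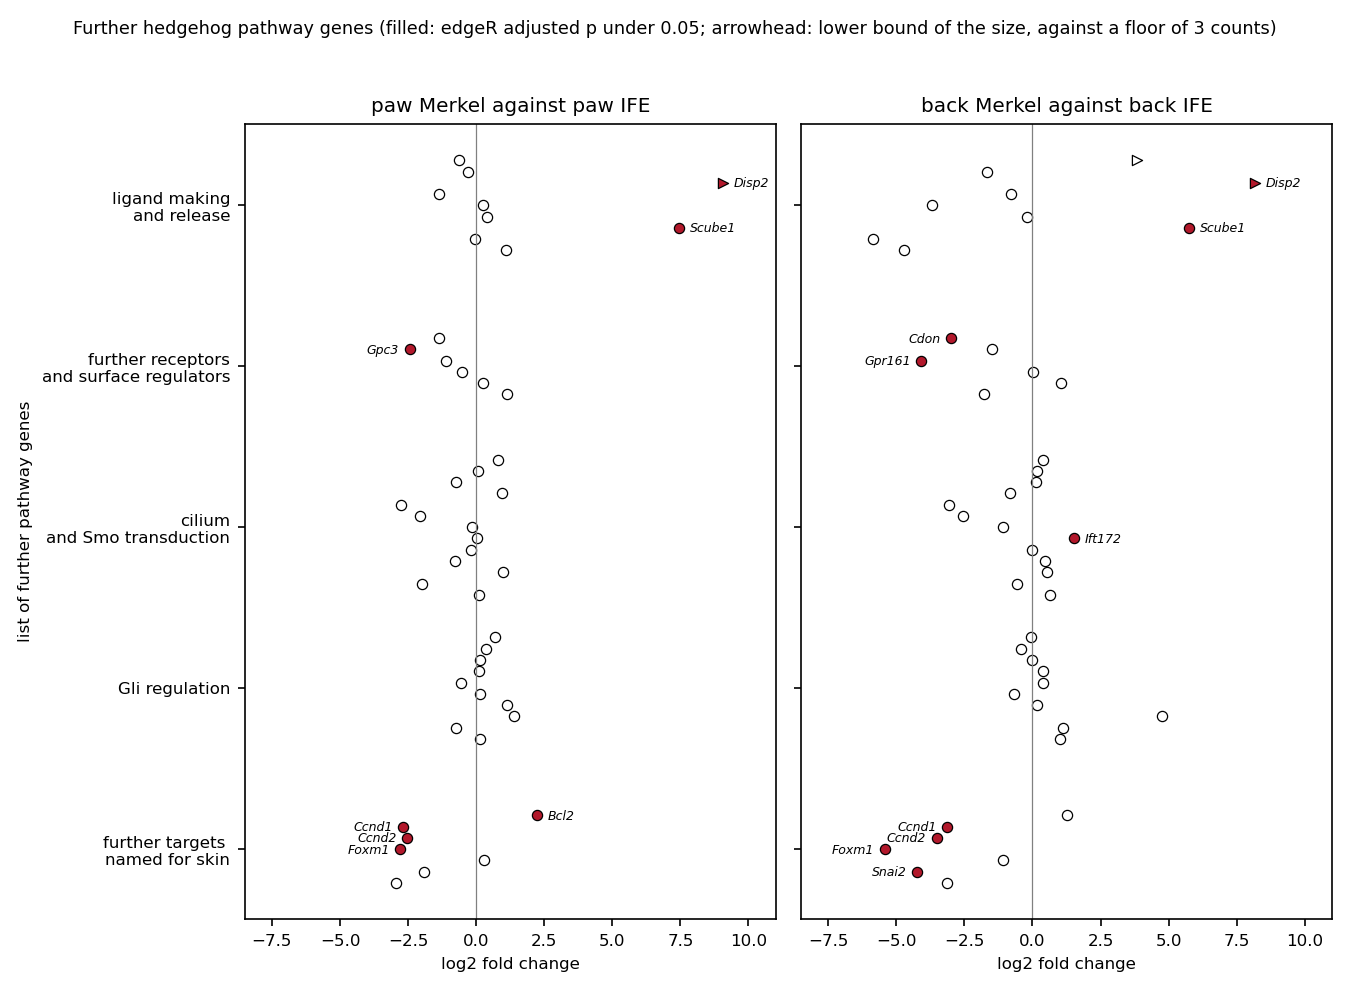
Log2 fold change of Merkel against IFE for the 45 tested further pathway genes, by list, in paw and on the back, with called genes filled and named and arrowheads at lower bounds. Disp2 and Scube1 stand far to the right at both sites, and the called skin targets other than Bcl2 stand to the left.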

How the data were processed

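RNA of sorted Merkel and IFE cells was sequenced in 8 libraries, 2 in each of 4 groups taken from the titles. The authors deposited counts per gene for each library and a table of FPKM; per the submitters' processing notes these involved TopHat2 2.0.13, Cufflinks 2.2.1, featureCounts of Subread 1.4.6, DESeq2 1.6.3 and the mm10 build, and the annotation and strand setting are not given in the sources used here. Libraries held 11139306 to 26195076 counts. The deposited counts were filtered (filterByExpr by group), scaled (TMM) and tested with edgeR 4.0.16 (R 4.3.3), with 1 mean per group, 4 residual degrees of freedom and Benjamini-Hochberg adjustment over 15151 genes; an adjusted p under 0.05 was a call. Standard errors were the log2 fold change divided by the root of F. CPM used TMM-adjusted library sizes. FPKM served for levels between genes, for the ratio of Gli3 to Gli2 and for alternatives with limma 3.58.1. It was also set beside the CPM of Hhip and Gli2. The other alternatives were DESeq2 1.42.0, RLE scaling, no filter, only the compared groups, a replicate block and leaving out each library. The fit was tested on simulated counts. The main fit did not pair libraries of the same replicate number (their deviations correlated at -0.0427 to 0.0845 between groups). Whether such libraries share mice or a sort is not stated, and these correlations cannot decide it. All 9 members were named, with pathway genes past the threshold (up to 4 per list and comparison, plus 1 the other way) and the 3 genes most like each member; 2 genes are not reported here. Marker lists of Schwann cells, melanocytes, endothelium and muscle had 0 genes called between cell types. Of immune markers, 1 of 6 was called lower in Merkel cells in paw and 3 on the back; of hair follicle markers, 1 of 8 and 3; of fibroblast markers, 1 of 6 and 4, with 1 higher on the back. Members and lists were chosen with earlier results of these data known. Amino acid sequences were not used here.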

Additional observations from a re-analysis of the deposited data

How the results depend on the processing

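With 2 libraries a group, the depth and the number of samples limit Shh, Hhip and Gli1, whose fold changes rest on few counts in at least 1 library. Of 96 alternative values of the 6 member results past the threshold, 84 stayed past it, 12 did not, and 0 changed direction. Of 701 alternative values of all member results, 35 changed direction, all in results not past the threshold. The cause of these changes was not tested. Of 256 values of further pathway genes past the threshold, a set of alternatives chosen after seeing the data, 30 fell short of it and 0 changed direction. Disp2 lost its calls with FPKM at a pseudocount of 1, and Ccnd1 its paw call with unfiltered FPKM. Scaling moved the median of all genes by less than 0.1 on the log2 scale.

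Members called in paw numbered 1; DESeq2 gave 3, no filter 4, and leaving out a library 1 to 4 (4 without paw Merkel library 1: Shh, Gas1, Smo and Gli3). Between the Merkel groups the 1 member became 3 with DESeq2, 3 with no filter, 0 with only the groups compared, 0 in each of the 3 fits on FPKM, and 0 to 2 without a library (2 without paw Merkel library 2, with Smo added). For the difference between sites the 0 became 2 with DESeq2, 3 with no filter, and 0 to 1 without a library (Gli3 without paw Merkel library 2). Over all genes, the 941 called in paw became 2227 with DESeq2, 1920 with no filter, 441 with unfiltered FPKM, and 392 to 2167 without a library. On the back, 2338 became 3963 with DESeq2 and 1143 to 3205 without a library. Between Merkel groups, 28 became 512 with DESeq2, 452 with no filter, 88 with only the groups compared, 13 and 12 with FPKM at pseudocounts of 1 and 0.1, and 0 to 40 without a library. Between IFE groups, 0 became 84 with DESeq2, 120 with no filter, 2, 1 and 8 with FPKM (pseudocount 1, pseudocount 0.1, unfiltered), and 0 to 15 without a library. For the difference between sites, 0 became 273 with DESeq2, 1 with RLE, 305 with no filter, 2 with FPKM at a pseudocount of 1, and 0 to 5 without a library.

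With the replicate block, members called in paw numbered 3 (Gas1, Smo and Gli3), and all genes called numbered 1 between IFE groups and 4 for the difference between sites. The block turned Gli1 to 0.62 between IFE groups and to -0.36 for the difference between sites, on the log2 scale. It changed no other direction and no other member's call.

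With FPKM, log2 fold changes between Merkel groups turned to -0.14, -0.33 and -0.14 for Shh and to -0.71, -0.84 and -0.71 for Gli2 (pseudocount 1, pseudocount 0.1, unfiltered). The difference between sites turned to -0.28, -0.30 and -0.28 for Ptch1 and to -0.54, -0.66 and -0.54 for Gli2. Leaving out 1 library moved these log2 fold changes across 0: Hhip from -2.37 to 0.53 in paw; Ptch1 from -1.62 to 0.49 and Hhip from -1.03 to 8.06 on the back. Between Merkel groups Shh ran from -1.53 to 1.06, Hhip from -2.80 to 1.57, Gli1 from -8.22 to 3.78 and Gli2 from -0.58 to 1.13. Between IFE groups Ptch1 ran from -2.04 to 0.071, Hhip from -0.035 to 7.63, Smo from -0.48 to 0.32, Gli1 from -2.12 to 2.22, Gli2 from -0.69 to 0.64 and Gli3 from -0.24 to 0.57. For the difference between sites Ptch1 ran from -1.13 to 0.99, Gli1 from -7.03 to 4.98 and Gli2 from -0.53 to 1.20.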
